A study of Mus musculus with 12 samples.

Results

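Collagen chain genes encode the alpha chains that wind together into the triple helices of the extracellular matrix, and they were followed here as a family in 12 mouse pancreatic tumours. Every gene symbol made of Col, a type number, the letter a and a chain number was taken, which gave 44 genes of the 24956 gene symbols measured. They fall into 11 chains of fibrillar collagens, 8 chains of basement membrane collagens and 25 other chains. Of these, 29 had enough counts to be tested between hosts, namely 9 fibrillar, 8 basement membrane and 12 other chains.

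All tumours grew from PDA.69, a pancreatic ductal adenocarcinoma (PDAC) line derived from KPC mice and labelled as low in T cells. There were 6 tumours in wild-type (WT) hosts and 6 in Alb-Cre+/+ Stat3f/f hosts, in which the albumin promoter drives Cre in hepatocytes and the floxed gene encodes the transcription factor STAT3. The genotype is that of the host, so the PDA.69 cells were the same line in both groups and the collagen genes were not themselves targeted. The sources used here give no age, sex, strain or implantation site. Nothing in the labels says whether every tumour is from a mouse of its own, so the p-values cover only the spread among these 12 samples, which may be partly technical.

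In pancreatic cancer most fibrillar collagen is made by cancer-associated fibroblasts, with types I and III as the main fibril formers and type V as the chain that starts and thins fibrils. Sheets of type IV collagen underlie epithelia and vessels, where multiplexins such as types XV and XVIII link the basement membrane to the tissue around it. Chains become collagen only after hydroxylation and folding in the endoplasmic reticulum, removal of propeptides outside the cell and crosslinking by lysyl oxidases.

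Genes for chains of 1 trimer can lie side by side. Col4a1 (chr8:11198423-11312826, minus strand, GRCm38) and Col4a2 (chr8:11312805-11449287, plus strand), which together form the common type IV trimer, start 21 bases apart and run in opposite directions. Their 2 promoter windows, each from 250 bases before to 50 bases after the RefSeq start on GRCm38.p6, share 78 bases, and they are shown to make that shared stretch visible. Also shown are the window of Col1a2, the chain gene with the highest mean level, and the window of the upstream start of Col18a1, the chain gene with the smallest p between hosts. Capitals mark CCAAT and GGGCGG on either strand, so that the reverse forms ATTGG and CCGCCC are also in capitals.
Col4a1, chr8:11312777-11313076, minus strand: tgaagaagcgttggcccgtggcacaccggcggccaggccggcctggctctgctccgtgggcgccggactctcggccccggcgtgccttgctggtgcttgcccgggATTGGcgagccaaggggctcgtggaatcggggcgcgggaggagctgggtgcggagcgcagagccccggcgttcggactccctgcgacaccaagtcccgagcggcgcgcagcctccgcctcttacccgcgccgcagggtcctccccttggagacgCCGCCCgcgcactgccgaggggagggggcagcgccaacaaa
Col4a2, chr8:11312555-11312854, plus strand: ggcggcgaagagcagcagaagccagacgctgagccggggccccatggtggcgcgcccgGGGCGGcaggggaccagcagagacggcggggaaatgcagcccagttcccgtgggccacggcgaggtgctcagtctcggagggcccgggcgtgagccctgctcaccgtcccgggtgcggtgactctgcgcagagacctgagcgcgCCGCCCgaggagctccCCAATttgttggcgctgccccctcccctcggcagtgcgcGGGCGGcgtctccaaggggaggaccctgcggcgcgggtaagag
Col1a2, chr6:4505368-4505667, plus strand: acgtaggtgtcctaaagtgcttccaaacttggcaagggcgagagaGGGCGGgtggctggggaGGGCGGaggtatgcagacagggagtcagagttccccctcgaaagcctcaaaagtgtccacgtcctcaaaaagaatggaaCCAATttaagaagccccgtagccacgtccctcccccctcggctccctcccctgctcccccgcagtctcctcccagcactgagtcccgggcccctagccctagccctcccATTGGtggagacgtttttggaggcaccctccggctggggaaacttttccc
Col18a1, chr10:77166481-77166780, minus strand: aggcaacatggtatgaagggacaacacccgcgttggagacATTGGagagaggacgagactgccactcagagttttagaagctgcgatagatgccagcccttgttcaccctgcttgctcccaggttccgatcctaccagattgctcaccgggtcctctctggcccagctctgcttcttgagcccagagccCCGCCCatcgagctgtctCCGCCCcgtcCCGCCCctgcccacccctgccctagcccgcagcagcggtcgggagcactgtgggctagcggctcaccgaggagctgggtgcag
The windows of Col4a1 and Col4a2 held the same GGGCGG, at chr8:11312812-11312817, once read from each strand. Col4a2 had 3 matches to GGGCGG in all and Col4a1 had 1, and each had 1 CCAAT. The window of Col1a2 had 2 of each, and the upstream window of Col18a1 had 3 GGGCGG and 1 CCAAT, whereas its downstream window (chr10:77113656-77113955) had none. Promoter windows were found for 35 of the 44 members, 38 windows in all. GGGCGG was in 23 of the 38 (60.5%), against 35.7% of all 32851 windows in the table. CCAAT was in 13 (34.2%, against 37.4%). The motif TTCNNNGAA, the core that STAT factors bind, was in 2 windows, those of Col6a5 and Col28a1 (5.26%, against 8.30%), and in none of the 4 printed. A match describes the letters of a window and was not tested as a binding site.

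The libraries held 5691707 to 8085609 counts, and 15221 to 16688 genes had a count in a tumour. Stat3 itself ranged from 232 to 273 CPM (counts per 1000000 of the scaled library size) in WT and from 202 to 302 CPM in Alb-Cre Stat3f/f tumours, and since the deletion is in the liver this does not check it. Acinar genes, which encode digestive enzymes of normal exocrine pancreas, took 0.494 to 18.0% of counts in WT tumours and 0.634 to 35.3% in Alb-Cre Stat3f/f tumours, and exceeded 15% in Alb-Cre Stat3f/f 1, 2, 3 and 4 and in WT 5. Of the acinar list, Amy2a5 had no count in any of the 12 tumours, Prss1 had none in 6 and Prss3 none in 4, for reasons that were not tested. All 17 tested acinar genes had a positive log2 fold change. Of them 0 passed the edgeR test between hosts at an adjusted p of 0.05 (7 did at an unadjusted p of 0.05). Summed fibroblast markers (10 genes, none at 0 in any tumour) were 463 ± 109 CPM in the WT group and 744 ± 181 CPM in the Alb-Cre Stat3f/f group (SD, n = 6), with ranges of 323 to 585 and 501 to 975. All 10 had a positive log2 fold change, from 0.08 to 1.24 with a median of 0.31, and 1, Dcn, passed that test. Dcn alone was 207 ± 61.9 and 403 ± 108 CPM of these sums, so they largely follow 1 matrix gene. The 7 epithelial markers summed to 3003 ± 271 and 2364 ± 284 CPM, all with a negative fold change, and 1 (Krt7) passed. Summed pericyte and smooth muscle markers were 480 ± 56.8 and 482 ± 51.1 CPM, and endothelial markers 160 ± 29.3 and 169 ± 36.5 CPM. In bulk tissue, fewer cells of a type and less RNA per cell cannot be told apart.

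Collagen chains took 0.776 ± 0.127% of all counts in the WT group and 0.693 ± 0.205% in the Alb-Cre Stat3f/f group (SD, n = 6). By tumour the share was 0.978, 0.624, 0.735, 0.770, 0.687 and 0.859% in WT 1 to 6, and 0.802, 0.504, 0.536, 0.506, 0.814 and 0.992% in Alb-Cre Stat3f/f 1 to 6. The lowest shares were in Alb-Cre Stat3f/f 2, 3 and 4, the 3 libraries with the most acinar counts, and the groups overlapped. With acinar genes and the ribosomal RNA gene Rn45s taken out of the total, the share was 0.862 ± 0.141% in WT tumours and 0.914 ± 0.182% in those of Alb-Cre Stat3f/f hosts, so the order of the group means depended on the denominator. The difference was smaller than the spread between tumours either way.

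Within the collagen counts, which do not depend on the rest of the library, fibrillar chains made up 73.5 ± 4.18% in WT tumours and 78.8 ± 3.35% in those of Alb-Cre Stat3f/f hosts. Basement membrane chains made up 17.4 ± 2.98% and 13.4 ± 2.70%, and the other chains 9.15 ± 1.25% and 7.79 ± 0.752%. The basement membrane part was 13.8, 22.8, 16.6, 17.4, 16.2 and 17.5% in WT 1 to 6 and 10.8, 12.1, 12.7, 16.3, 17.2 and 11.3% in Alb-Cre Stat3f/f 1 to 6. Alb-Cre Stat3f/f 1, 2, 3 and 6 lay below every WT tumour, while 4 and 5 lay within the WT range. These shares sum to 100, so a higher fibrillar part and a lower basement membrane part are not 2 separate measurements, and as sums over members they were not tested. Alb-Cre Stat3f/f 4 and 5 also had the lowest summed fibroblast markers of their group, 501 and 578 CPM, of which Dcn was 284 and 299 CPM.

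**Figure D1:**
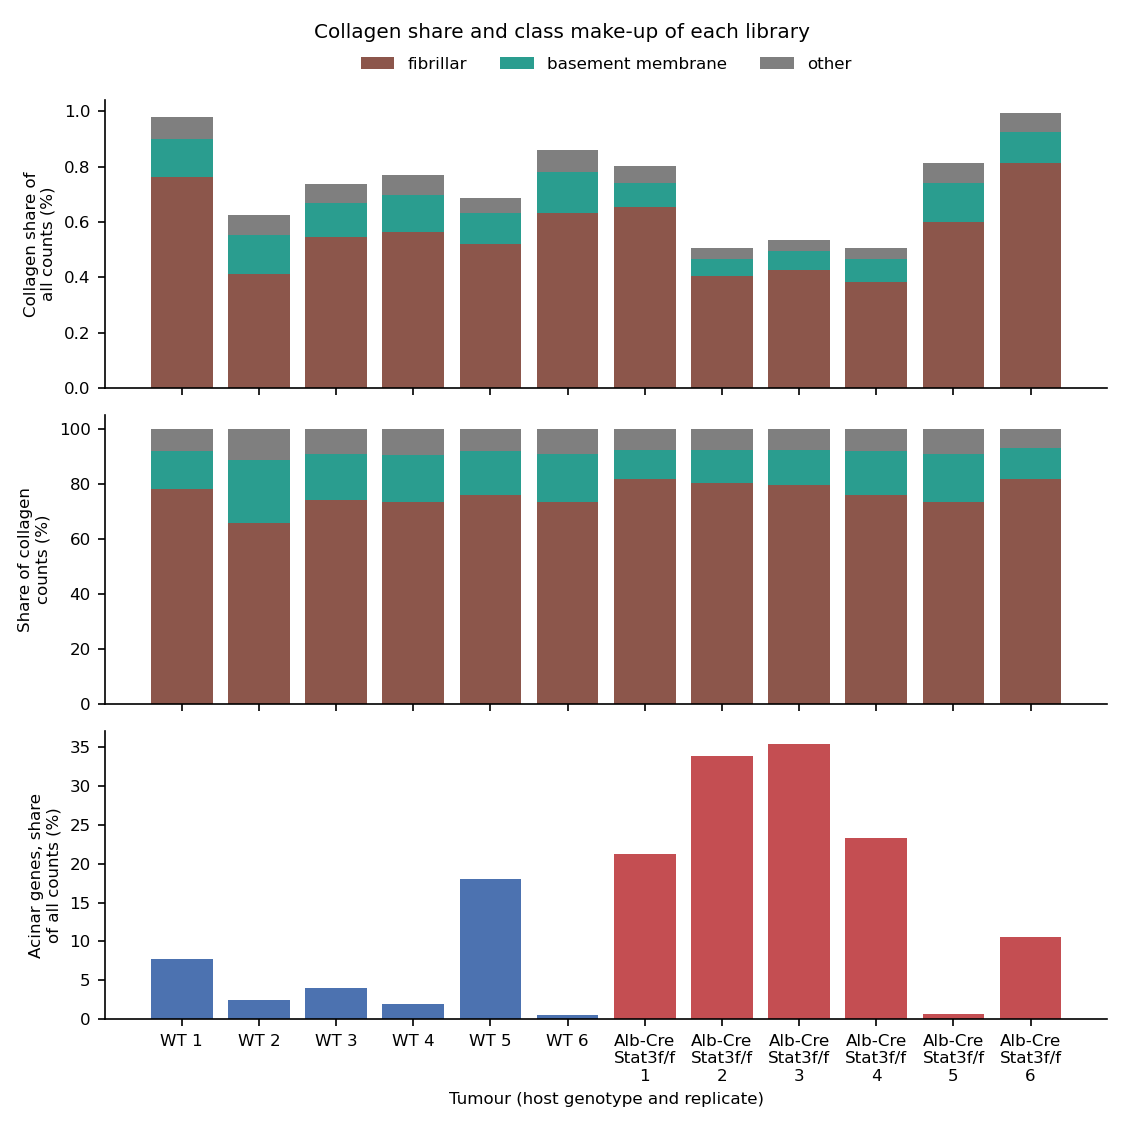
Collagen counts in each of the 12 tumours. The top panel stacks the 3 classes as percent of all counts, the middle panel as percent of collagen counts, and the bottom panel shows acinar genes as percent of all counts. Alb-Cre Stat3f/f 2, 3 and 4 have the smallest collagen shares (0.504 to 0.536%) and acinar shares of 23.3 to 35.3%.

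Libraries read from the 3' end give about 1 read per transcript whatever its length, so length alone does not order the CPM levels. They still depend on which 3' ends were counted, and the annotation and handling of paralogous reads are not given. The order of chains is therefore one of counts, and was not checked as one of transcripts. The 3 main fibrillar chains led, with means over all 12 tumours of 2085 CPM for Col1a2, 1781 CPM for Col1a1 and 1201 CPM for Col3a1. Together they made up 65.1 ± 4.18% of collagen counts in WT tumours and 71.8 ± 4.05% in those of Alb-Cre Stat3f/f hosts. Next came Col4a1 at 446 CPM and Col18a1 at 340 CPM, then Col5a1, Col4a2, Col27a1, Col8a1, Col5a2 and Col6a1 between 190 and 113 CPM. The first neighbours in this order did not differ beyond their spread: in WT tumours Col1a2 was at 1740 ± 475 and Col1a1 at 1683 ± 359 CPM. The lowest tested chains were Col4a3, Col4a4 and Col11a2, at 1.39, 1.65 and 1.71 CPM.

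Hosts were compared in edgeR (quasi-likelihood test), with Benjamini-Hochberg adjusted p-values (12856 genes tested) and a threshold of 0.05. Of the 29 chains tested, 0 passed, where 2.23% of all tested genes passed as higher and 0.747% as lower in Alb-Cre Stat3f/f tumours (2.98% in either direction). At an unadjusted p under 0.05, 3 chains were on the higher side (Col3a1, Col1a2, Col6a5) and 4 on the lower side (Col18a1, Col27a1, Col12a1, Col8a1), beside 11.5% and 7.83% of all genes (19.4% in either direction). With limma-voom 0 chains passed. With DESeq2, which tested more genes, 1 chain passed, Col18a1, beside 4.1% of genes higher and 1.89% lower. No chain had groups that did not overlap, which 1.37% of tested genes showed in the higher and 0.646% in the lower direction.

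The median log2 fold change (Alb-Cre Stat3f/f over WT) was 0.03 over the 29 chains, with 16 positive and 13 negative, and -0.00 over all genes tested, with 6422 positive and 6434 negative. Fibrillar chains had a median of 0.14 (6 positive, 3 negative), basement membrane chains -0.17 (2 positive, 6 negative) and other chains 0.10 (8 positive, 4 negative). Leaving out 1 tumour moved the fibrillar median between 0.05 (without Alb-Cre Stat3f/f 1) and 0.28 (without WT 1). The basement membrane median stayed between -0.20 and -0.12, and the median of the other chains turned to -0.01 without Alb-Cre Stat3f/f 1 and to -0.00 without Alb-Cre Stat3f/f 3. With the mean log2 level of the fibroblast markers as a covariate, 23 of the 29 were negative, the fibrillar median was -0.08 and that of the other chains -0.07. The fibroblast score includes genes of matrix proteins, such as Dcn and Lum, and all 10 of its genes had a positive log2 fold change. Fits with it therefore cannot tell fibroblast content from matrix expression. In a simulation of this design, 31.3% of genes changed 1.5-fold and 82.1% of those changed 2-fold were recovered. The changed genes were drawn above a minimum mean CPM that sparse chains such as Col4a3, Col4a4 and Col11a2 did not reach. The shares recovered do not cover those chains.

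**Figure D2:**
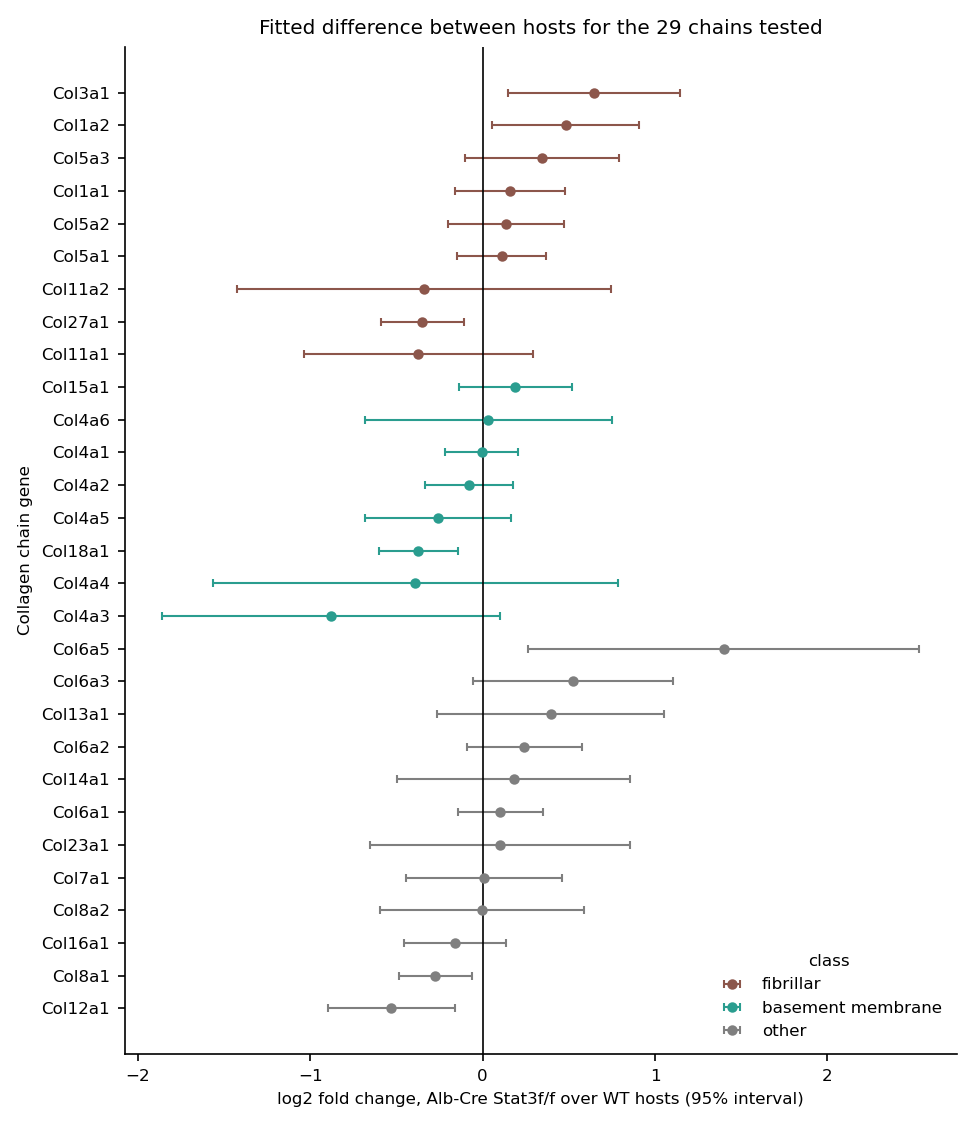
Fitted log2 fold change of the 29 tested chains, Alb-Cre Stat3f/f over WT, with 95% intervals, ordered within each class. The intervals of 7 chains exclude 0 before adjustment for the number of genes, from -0.53 for Col12a1 to 1.40 for Col6a5.

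Among the fibrillar chains, those of types I, III and V had the higher means in Alb-Cre Stat3f/f tumours, most of all Col3a1, and none passed the test. Col3a1 (chr1:45311538-45349706, plus strand), the chain of type III collagen, was at 1376, 714, 828, 742, 1172 and 790 CPM in WT 1 to 6 and at 1943, 1604, 1933, 851, 934 and 1520 CPM in Alb-Cre Stat3f/f 1 to 6. The means were 937 ± 272 and 1464 ± 475 CPM (SD, n = 6). Alb-Cre Stat3f/f 1, 2, 3 and 6 exceeded the highest WT tumour, while 4 and 5 lay within the WT range. The fitted log2 fold change was 0.64 ± 0.23 (SE; edgeR adjusted p = 0.147). With the fibroblast covariate it was 0.12 ± 0.18, with the mean acinar marker level as covariate 0.36 ± 0.20, and in the 7 tumours with no more than 15% acinar counts (5 WT, 2 Alb-Cre Stat3f/f) 0.46 ± 0.27.

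Col1a2 (chr6:4504814-4541544, plus strand), the second chain of type I collagen, was at 2126, 863, 1733, 1656, 2154 and 1911 CPM in WT 1 to 6. In Alb-Cre Stat3f/f 1 to 6 it was at 2830, 2156, 2715, 1738, 1879 and 3260 CPM. WT 2 was low by itself, and Alb-Cre Stat3f/f 1, 2, 3 and 6 exceeded the highest WT value, tumour 2 by a narrow margin. The log2 fold change was 0.48 ± 0.20 (edgeR adjusted p = 0.200), and 0.34 ± 0.16 without WT 2. Values with the acinar or fibroblast covariate were 0.38 ± 0.23 and 0.28 ± 0.26.

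Col1a1 (chr11:94936224-94953042, plus strand), the first chain of type I collagen, outnumbers Col1a2 in the usual trimer. It was at 2387, 1414, 1481, 1497, 1633 and 1684 CPM in WT 1 to 6 and at 2212, 1870, 2183, 1448, 1349 and 2214 CPM in Alb-Cre Stat3f/f 1 to 6. The highest value was in WT 1, and no Alb-Cre Stat3f/f tumour exceeded it. Its log2 fold change was 0.16 ± 0.15 (95% interval -0.16 to 0.48, edgeR adjusted p = 0.611), 0.01 ± 0.15 with the acinar covariate and -0.11 ± 0.17 with the fibroblast covariate.

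Col27a1 (chr4:63214004-63334991, plus strand), a fibrillar chain best known from cartilage, was the fibrillar chain with the smallest p and had the lower mean in Alb-Cre Stat3f/f tumours. It was at 235, 134, 188, 201, 206 and 211 CPM in WT 1 to 6 and at 153, 149, 136, 179, 157 and 149 CPM in Alb-Cre Stat3f/f 1 to 6. WT 2 was the lowest of all 12 tumours, and the other 5 WT tumours lay above every Alb-Cre Stat3f/f tumour. The log2 fold change was -0.35 ± 0.11 (edgeR adjusted p = 0.0993). Without WT 2 it was -0.44 ± 0.09 and passed (edgeR adjusted p = 0.0175), beside 1.95% of genes higher and 0.554% lower in that fit. It was -0.35 ± 0.13 with the acinar covariate and -0.24 ± 0.13 with the fibroblast covariate.

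The type V chains, which join type I in mixed fibrils, had log2 fold changes of 0.11 ± 0.12 for Col5a1, 0.14 ± 0.16 for Col5a2 and 0.34 ± 0.21 for Col5a3. Their means (WT first, then Alb-Cre Stat3f/f) were 183 ± 23.8 and 197 ± 37.8 CPM, 139 ± 35.7 and 153 ± 31.1 CPM, and 28.8 ± 9.04 and 36.6 ± 9.49 CPM, with overlapping groups. All 3 log2 fold changes were negative with the fibroblast covariate, from -0.10 to -0.07. Col11a1 and Col11a2, which form the cartilage counterpart of type V, were low, at 6.94 and 1.71 CPM on average, with log2 fold changes of -0.37 ± 0.32 and -0.34 ± 0.52.

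**Figure D3:**
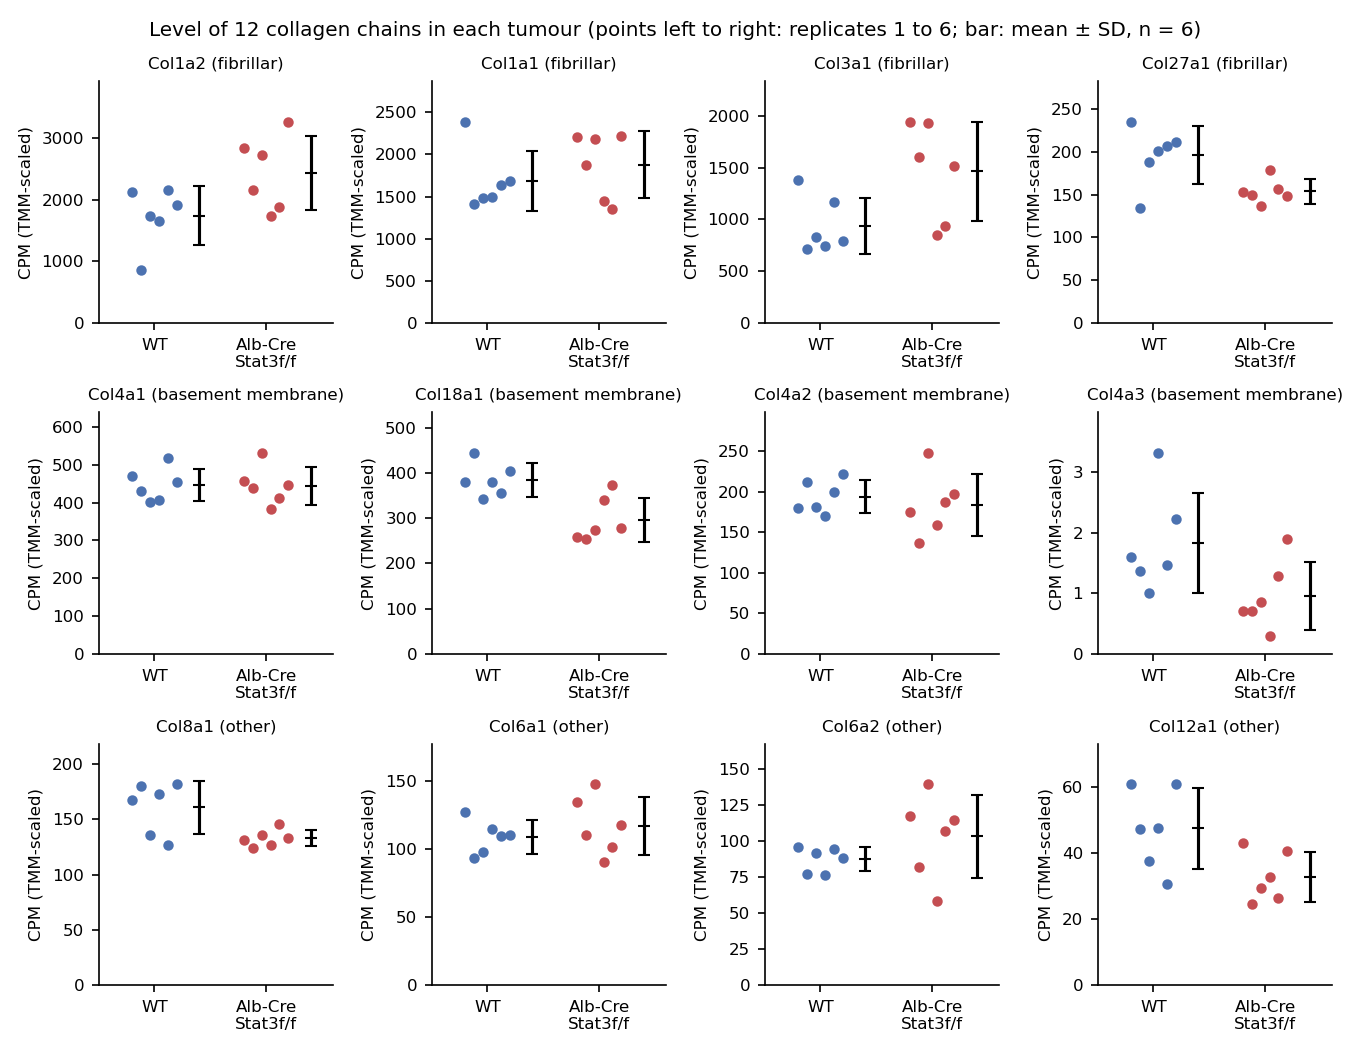
CPM of 12 chains in each tumour, with the mean ± SD of each host genotype (n = 6; WT blue, Alb-Cre Stat3f/f red); points run from replicate 1 to 6, and each panel has its own axis starting at 0. For Col3a1 and Col1a2, 4 of the Alb-Cre Stat3f/f points exceed all WT points, and for Col18a1, 5 are under all of them.

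Of the basement membrane chains, Col18a1 had the smallest p, with a lower mean in Alb-Cre Stat3f/f tumours and no call, while the 2 common type IV chains were nearly level between hosts. Col18a1 (chr10:77052178-77166548, minus strand) encodes the type XVIII chain, whose C-terminal fragment is endostatin. It was at 380, 444, 342, 380, 355 and 405 CPM in WT 1 to 6 and at 258, 255, 274, 340, 374 and 278 CPM in Alb-Cre Stat3f/f 1 to 6, with means of 384 ± 36.7 and 296 ± 48.9 CPM. All Alb-Cre Stat3f/f tumours but tumour 5 lay below every WT tumour, tumour 4 only just. The log2 fold change was -0.37 ± 0.11, with an edgeR adjusted p of 0.0664.

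That value lay near the threshold and crossed it under some settings. With DESeq2 the log2 fold change of Col18a1 was -0.38 (adjusted p = 0.0226). Without Alb-Cre Stat3f/f 4 it was -0.42 (edgeR adjusted p = 0.0410; 3.12% of genes higher and 1.51% lower), and without Alb-Cre Stat3f/f 5 it was -0.46 (edgeR adjusted p = 0.0168; 3.64% higher and 1.72% lower). Alb-Cre Stat3f/f 5 had an acinar share of 0.634%, tumour 6 had 10.6%, and tumours 1 to 4 had 21.2 to 35.3%. Col18a1 was at 374 CPM in tumour 5, at 278 CPM in tumour 6, and at 258, 255, 274 and 340 CPM in tumours 1 to 4. In WT 5, with an acinar share of 18.0%, it was at 355 CPM, and in WT 6, with 0.494%, at 405 CPM. A relation between Col18a1 and the acinar share was not tested. With the acinar covariate the log2 fold change of Col18a1 was -0.26 ± 0.11 (edgeR adjusted p = 0.300), with the fibroblast covariate -0.27 ± 0.12, and in the 7 tumours low in acinar counts -0.26 ± 0.15. The summed epithelial markers had a lower mean in the same tumours, as given above, and their part in the difference was not tested.

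Col4a1 was at 469, 430, 402, 407, 517 and 455 CPM in WT 1 to 6 and at 458, 438, 532, 382, 412 and 447 CPM in Alb-Cre Stat3f/f 1 to 6. The groups lay over each other, with means of 447 ± 43.2 and 445 ± 50.5 CPM. The 95% interval of its log2 fold change of -0.01 ran from -0.22 to 0.20 (edgeR adjusted p = 0.980). Col4a2 was at 181, 212, 182, 170, 200 and 222 CPM in WT 1 to 6 and at 176, 137, 248, 159, 187 and 197 CPM in Alb-Cre Stat3f/f 1 to 6. Alb-Cre Stat3f/f tumours held both the lowest and the highest value, and the log2 fold change was -0.08 (95% interval -0.33 to 0.17, edgeR adjusted p = 0.770).

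Col4a3 (chr1:82586921-82722059, plus strand) belongs to the type IV trimer of specialised basement membranes such as that of the kidney glomerulus. It was sparse: 1.59, 1.37, 0.999, 3.31, 1.47 and 2.22 CPM in WT 1 to 6, and 0.704, 0.701, 0.857, 0.300, 1.28 and 1.90 CPM in Alb-Cre Stat3f/f 1 to 6. Alb-Cre Stat3f/f 1 to 4 lay below every WT tumour, on 85 counts over the WT group and 38 over the Alb-Cre Stat3f/f group. The log2 fold change was -0.88 ± 0.47 (edgeR adjusted p = 0.309), and -0.25 ± 0.62 in the 7 tumours low in acinar counts. An RNA on the opposite strand, C430014B12Rik, overlaps 563 exonic bases of Col4a3, and the sources used here do not say whether counting used the strand. The remaining type IV chains, Col4a4, Col4a5 and Col4a6, had log2 fold changes of -0.39 ± 0.56, -0.26 ± 0.20 and 0.03 ± 0.34. Col15a1, the type XV chain and closest relative of Col18a1, had the opposite sign to it, at 0.19 ± 0.16 (82.2 ± 19.4 CPM in WT, 93.8 ± 19.1 CPM in Alb-Cre Stat3f/f tumours), and -0.10 with the fibroblast covariate.

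Among the other chains, those of type VI, which form beaded microfilaments between cells and fibrils, all had positive log2 fold changes (4 of 4 tested, median 0.38), and 0 passed by edgeR (1 at an unadjusted p under 0.05, Col6a5). Col6a1 (chr10:76708792-76726168, minus strand) was at 127, 93.3, 97.6, 115, 110 and 110 CPM in WT 1 to 6 and at 134, 110, 148, 90.1, 102 and 118 CPM in Alb-Cre Stat3f/f 1 to 6. The groups overlapped widely, with a log2 fold change of 0.10 ± 0.12 (edgeR adjusted p = 0.681). Col6a2 (chr10:76595762-76623630, minus strand) was at 95.9, 77.3, 91.9, 76.8, 94.8 and 88.2 CPM in WT 1 to 6 and at 117, 82.3, 140, 58.4, 107 and 115 CPM in Alb-Cre Stat3f/f 1 to 6. Alb-Cre Stat3f/f 1, 3, 5 and 6 exceeded all WT tumours and tumour 4 lay below all of them, giving 0.24 ± 0.16 (edgeR adjusted p = 0.426). With the fibroblast covariate both log2 fold changes were -0.06.

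Col6a3 and Col6a5 were singled out after their values were seen. Col6a3, the longest chain of the common type VI trimer, was at 72.9 ± 30.6 CPM in WT and 105 ± 26.0 CPM in Alb-Cre Stat3f/f tumours, a log2 fold change of 0.52 ± 0.27 (edgeR adjusted p = 0.311). Col6a5, a chain that can take the place of Col6a3, had the largest log2 fold change of the 29 tested chains, 1.40 ± 0.54 (edgeR adjusted p = 0.156), on 62 WT and 128 Alb-Cre Stat3f/f counts. It ranged from 0.118 to 3.01 CPM in WT and from 1.65 to 6.31 CPM in Alb-Cre Stat3f/f tumours, of which 3 exceeded all WT tumours. With the fibroblast covariate the log2 fold change of Col6a3 was 0.10 ± 0.25 and that of Col6a5 0.48 ± 0.53.

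Col12a1 (chr9:79598991-79718831, minus strand), a chain that decorates type I fibrils, and Col8a1 (chr16:57624258-57754737, minus strand), a short chain that forms hexagonal networks around vessels, had the smallest p-values of this class, both with the lower mean in Alb-Cre Stat3f/f tumours. Col12a1 was at 60.7, 47.3, 37.6, 47.4, 30.4 and 60.9 CPM in WT 1 to 6 and at 43.0, 24.5, 29.4, 32.7, 26.4 and 40.6 CPM in Alb-Cre Stat3f/f 1 to 6. WT 5 was the low WT tumour, and 3 Alb-Cre Stat3f/f tumours lay below it. The log2 fold change of Col12a1 was -0.53 ± 0.18 (edgeR adjusted p = 0.105), and without WT 5 it was -0.63 ± 0.16 and passed (edgeR adjusted p = 0.0371), beside 3% of genes higher and 1.17% lower in that fit. WT 5 is the WT tumour with 18.0% acinar counts; with the acinar covariate the value was -0.45 ± 0.21, and with the fibroblast covariate -0.55 ± 0.23.

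Col8a1 was at 167, 181, 136, 173, 127 and 182 CPM in WT 1 to 6 and at 131, 124, 136, 127, 146 and 133 CPM in Alb-Cre Stat3f/f 1 to 6. WT 3 and 5 lay among the Alb-Cre Stat3f/f tumours and the other 4 WT tumours above them all. Its log2 fold change was -0.27 ± 0.10 (edgeR adjusted p = 0.142), while its partner Col8a2, at 4.97 CPM on average, had a log2 fold change of -0.00 ± 0.28. Of the remaining tested chains, the fibril-associated Col14a1 and Col16a1, the anchoring fibril chain Col7a1 and the transmembrane chains Col13a1 and Col23a1 had log2 fold changes from -0.16 to 0.39, each with a 95% interval that included 0.

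**Figure D4:**
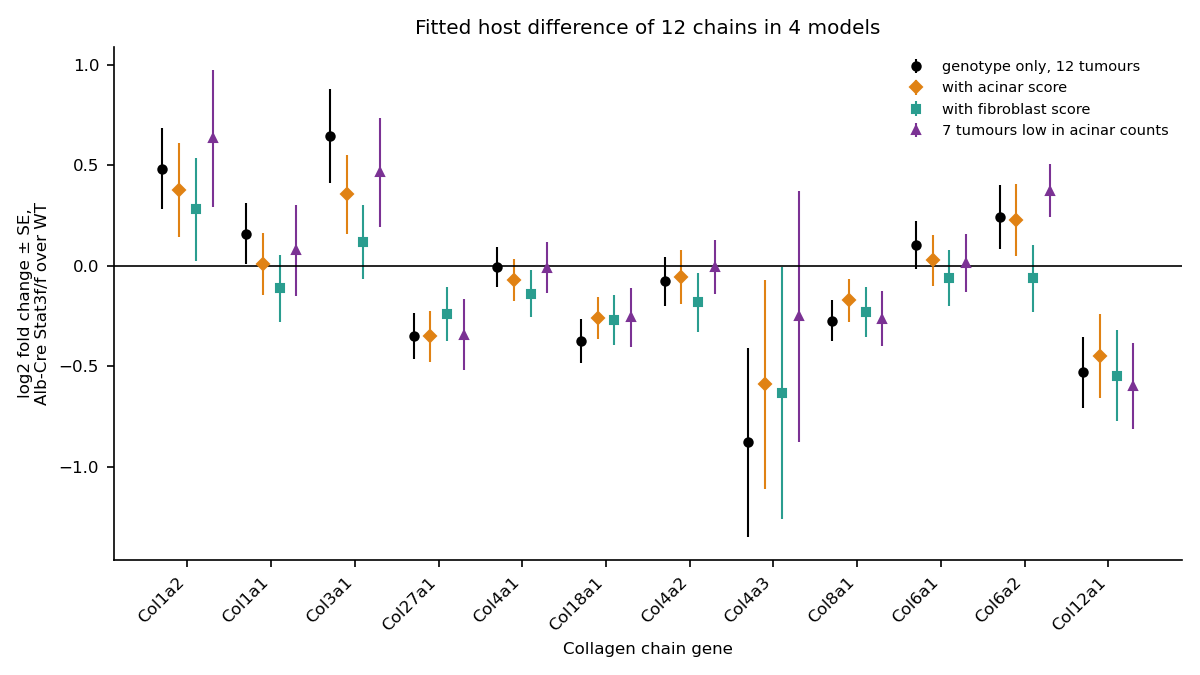
Log2 fold change ± SE of 12 chains, Alb-Cre Stat3f/f over WT, in the model with genotype alone, with the acinar or the fibroblast marker score as covariate, and in the 7 tumours low in acinar counts. Col3a1 goes from 0.64 to 0.12 with the fibroblast score, and Col12a1 from -0.53 to -0.55.

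The 15 chains that were not tested had at most 23 counts in any tumour. They include the chains of cartilage types II, IX and X, the hemidesmosome chain Col17a1, and Col6a4 and Col6a6. Col10a1 had 64 counts over the WT and 31 over the Alb-Cre Stat3f/f group, Col17a1 had 34 and 56, and Col6a6 had 23 and 53. Col22a1, found at tissue junctions, had 9 counts over the WT group and 0 over the Alb-Cre Stat3f/f group, where a count of 0 allows up to 0.0811 CPM over the group (3 counts; counting error only). No chain was without counts in all 12 tumours.

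Chains of 1 collagen type were compared across the 12 tumours on log2 CPM, for 7 pairs, with permutation p-values adjusted by Benjamini-Hochberg over the pairs. Col5a1 and Col5a2 varied most closely together (Pearson r = 0.88, permutation adjusted p = 0.00154; Spearman rho = 0.86, permutation adjusted p = 0.00413), with r = 0.89 within WT and 0.92 within Alb-Cre Stat3f/f tumours. Col1a1 and Col1a2 had r = 0.73 (permutation adjusted p = 0.00714; rho = 0.78, permutation adjusted p = 0.0131), 0.58 within WT and 0.93 within Alb-Cre Stat3f/f tumours. Without the 2 tumours farthest from the median of the first chain, r was 0.89 for type V and 0.74 for type I. Within a genotype the exact permutation adjusted p of r was between 0.0535 and 0.314 for these pairs.

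Col6a1 and Col6a2 had r = 0.77 (permutation adjusted p = 0.00805; rho = 0.69, permutation adjusted p = 0.0379). Without Alb-Cre Stat3f/f 3 and 4, the 2 tumours farthest from the median of Col6a1, r was 0.50 (permutation adjusted p = 0.208). Leaving out the farthest tumours narrows the range of the first chain, which can lower r by itself. Within WT r was 0.39 and within Alb-Cre Stat3f/f tumours 0.86. For Col4a1 and Col4a2, the pair that shares a start, r was 0.57 (permutation adjusted p = 0.0586; rho = 0.51, permutation adjusted p = 0.110), and 0.30 without the 2 farthest tumours. The pairs of Col6a3 with Col6a1 and Col6a2 had r = 0.61 and 0.58 (permutation adjusted p = 0.0586 each; rho = 0.55 and 0.60), 0.62 and 0.63 without the 2 farthest, and 0.57 to 0.86 within a genotype. Col8a1 and Col8a2 had r = 0.21 (permutation adjusted p = 0.516; rho = 0.10), 0.51 within WT and -0.50 within Alb-Cre Stat3f/f tumours.

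**Figure D5:**
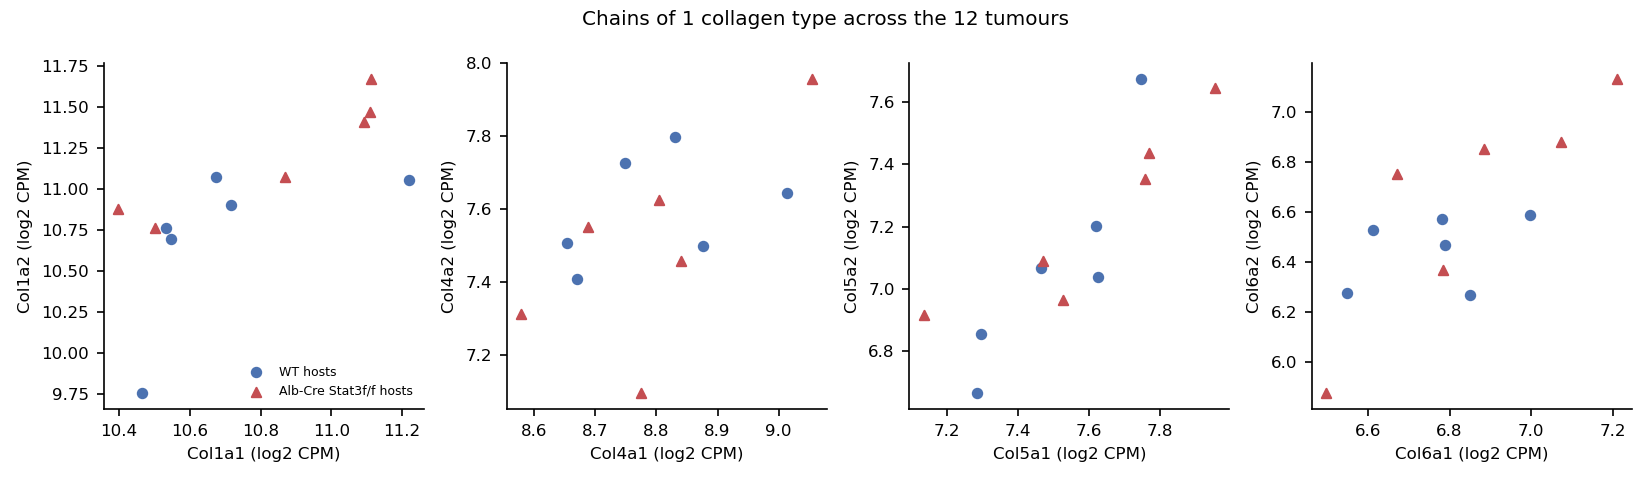
Log2 CPM of 4 pairs of chains in the 12 tumours (circles WT, triangles Alb-Cre Stat3f/f hosts); axes do not start at 0. Col5a1 and Col5a2 lie closest to a line (r = 0.88), and Col4a1 and Col4a2 scatter most (r = 0.57).

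The ratio of partner counts within a library is free of any scaling. Col1a1 had 1.12, 1.64, 0.855, 0.904, 0.758 and 0.881 counts per count of Col1a2 in WT 1 to 6 and 0.781, 0.867, 0.804, 0.833, 0.718 and 0.679 in Alb-Cre Stat3f/f 1 to 6. WT 2 stood highest, and WT 3 and WT 5 lay within the Alb-Cre Stat3f/f range. The mean log2 ratio differed by -0.35 (Alb-Cre Stat3f/f minus WT; exact two-sided permutation p = 0.0390 over 924 relabellings, 0.242 adjusted over the 7 pairs). For the other 6 pairs the exact permutation p was between 0.0693 and 0.580. Col4a1 had 2.31 ± 0.254 counts per count of Col4a2 in WT tumours and 2.47 ± 0.397 in those of Alb-Cre Stat3f/f hosts.

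The genes that make, crosslink, degrade and sense collagen were read from 7 lists of 92 genes in all, 85 tested, of which 1 passed as higher and 2 as lower by edgeR, beside 2.23% and 0.747% of all genes tested. At an unadjusted p under 0.05, 10 of the 85 were higher and 12 lower, beside 11.5% and 7.83% of all genes, and the unadjusted counts per list are read against the same shares. Their median log2 fold change was -0.07, with 35 positive and 50 negative. Of 17 tested genes for hydroxylation and folding 0 passed (unadjusted p under 0.05: 3 higher, 1 lower). The smallest p-values were those of Colgalt1, which adds galactose to hydroxylysine (log2 fold change -0.32 ± 0.10, edgeR adjusted p = 0.0788), and Mia3, which loads procollagen into transport carriers (0.25 ± 0.10, edgeR adjusted p = 0.187). Colgalt1 shares 495 exonic bases with Unc13a on the opposite strand. Of 11 genes for propeptide removal and crosslinking 0 passed (2 higher unadjusted), with log2 fold changes of 0.40 ± 0.15 for Loxl1, a lysyl oxidase, and of 0.35 ± 0.13 for Adamts2, the procollagen N-proteinase. With DESeq2, Colgalt1 passed as lower.

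Of 9 genes for breakdown and uptake 0 passed (1 lower unadjusted). The membrane collagenase Mmp14 had a log2 fold change of -0.22 ± 0.10 and the interstitial collagenase Mmp13 one of -0.70 ± 0.38. WT 1 had 91.9 CPM of Mmp13, the highest of the 12 tumours, and without it the log2 fold change was -0.30. Of 10 collagen receptor genes 0 passed (2 higher and 2 lower unadjusted), with log2 fold changes of -0.45 ± 0.16 for the receptor kinase Ddr1 and 0.41 ± 0.15 for the leukocyte inhibitory receptor Lair1. Beside Lair1, 4 of 6 leukocyte markers passed as higher, with summed levels of 189 ± 35.0 CPM in the WT and 316 ± 48.6 CPM in the Alb-Cre Stat3f/f group, and their part was not tested. Ddr1 shares 216 exonic bases with the antisense gene Gm4577. Of 12 genes of the transforming growth factor beta pathway, a driver of collagen transcription, 10 had a negative log2 fold change and 0 passed (2 lower unadjusted). The 2 were the inhibitor Smad7 (log2 fold change -0.52 ± 0.15, edgeR adjusted p = 0.0546) and the signal carrier Smad3 (-0.27 ± 0.09, edgeR adjusted p = 0.0884), which both passed with DESeq2. For Smad3 every Alb-Cre Stat3f/f tumour (131 to 174 CPM) lay below every WT tumour (182 to 199 CPM), which 0.646% of all tested genes showed.

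Both lower calls were among the 15 tested partners of basement membrane collagen, and 1 of them was Agrn. Agrn, the heparan sulfate proteoglycan agrin, was at 153 ± 21.6 CPM in WT and 106 ± 20.8 CPM in Alb-Cre Stat3f/f tumours, with 3 of 6 below every WT tumour. Agrn fell by 0.52 ± 0.13 on the log2 scale (edgeR adjusted p = 0.0283). That call was lost when WT 2, 3, 4 or 6 or Alb-Cre Stat3f/f 1, 2 or 3 was left out, with edgeR adjusted p from 0.0554 to 0.0839, and with the acinar covariate (-0.33, edgeR adjusted p = 0.159) or the fibroblast covariate (-0.32, edgeR adjusted p = 0.443). Over all genes, 96 passed as lower in the main fit, and 37 to 72 in those fits without 1 tumour. With the acinar covariate 38 did, and with the fibroblast covariate 12. Of the other 13 tested partners 0 passed in the main edgeR fit (the list had 1 higher and 4 lower at an unadjusted p under 0.05, both calls included). Lamb3, a laminin chain, had a log2 fold change of -0.73 ± 0.21 (edgeR adjusted p = 0.0546). It passed as lower with DESeq2, and in edgeR without a filter, without WT 2 and without Alb-Cre Stat3f/f 4. Over all genes, 283, 115, 72 and 197 passed as lower in these 4 settings. The summed epithelial markers, as given above, had the lower mean in the same host group, and their part in the Agrn difference was not tested.

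Of the 11 partners of collagen fibrils, 1 passed: Dcn, the proteoglycan decorin that coats type I fibrils and is itself one of the fibroblast markers above. It was at 223, 213, 242, 132, 293 and 139 CPM in WT 1 to 6 and at 477, 462, 548, 284, 299 and 349 CPM in Alb-Cre Stat3f/f 1 to 6. Only tumour 4 of the Alb-Cre Stat3f/f group lay within the WT range, and tumour 5 barely exceeded it. Dcn rose by 0.96 ± 0.22 on the log2 scale (edgeR adjusted p = 0.0337). That call was lost when WT 1, 2, 3 or 6 or Alb-Cre Stat3f/f 1, 2 or 3 was left out, with edgeR adjusted p from 0.0560 to 0.0809, in the 7 tumours low in acinar counts (0.77, edgeR adjusted p = 0.201), without a filter on low counts (0.95, edgeR adjusted p = 0.0616) and with the fibroblast covariate, whose score includes Dcn (0.50, edgeR adjusted p = 0.193). Over all genes, 287 passed as higher in the main fit, and 141 to 253 in those fits without 1 tumour. The number was 83 in the 7 tumours, 298 without the filter and 30 with the fibroblast covariate. Beside Dcn, Col3a1, Col1a2 and Col1a1 had the log2 fold changes of 0.64, 0.48 and 0.16 given above, none of which passed. The 11 fibril partners went both ways, with 5 positive and 6 negative log2 fold changes and a median of -0.07. At an unadjusted edgeR p under 0.05, 2 were higher and 2 lower.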

How the data were processed

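RNA was taken from fixed, paraffin-embedded tumour sections and made into QuantSeq 3' FWD libraries, per the labels' protocols. The authors deposited 1 table of counts per gene symbol, without normalisation. The submitters' processing notes name STAR and mm10. Versions, counting tool, annotation, strand setting and the handling of paralogous reads: not given in the sources used here. Of 24982 rows, 26 named by dates (0.0690 to 0.166% of counts) were left out.

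The analysis used edgeR 4.0.16 under R 4.3.3: filterByExpr by genotype (minimum count 10), which left 12856 genes, TMM scaling (factors 0.578 to 1.29), and the robust quasi-likelihood test, two-sided, with Benjamini-Hochberg adjustment at 0.05. CPM values are counts per 1000000 of TMM-scaled library size, and log2 CPM had a prior count of 2. Marker scores are mean log2 CPM of a list. Alternatives were DESeq2 1.42.0, its size factors in edgeR, limma-voom (limma 3.58.1), no filter, a strict filter (10 CPM in 6 tumours), the acinar or the fibroblast score as covariate, removal of acinar genes and Rn45s, removal of acinar-rich tumours, a replicate block and leaving out each tumour. Correlations used 100000 permutations, or exact ones within a genotype.

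Chains named with every tumour's value were, per class, the 3 with the highest mean CPM and the 2 with the smallest p. Pathway genes named were, in each list, those past the threshold or the 2 with the smallest p. Lamb3 was added to them after its calls under other settings were seen. Of these genes Dcn is given tumour by tumour and the others by fold change, mean or range. Members and lists were chosen with earlier results of these data known. Coordinates are from GENCODE M21 on GRCm38 and promoter windows from RefSeq on GRCm38.p6. On simulated counts of 12723 genes, edgeR recovered 21 of 67 genes changed 1.5-fold, 55 of 67 changed 2-fold and 65 of 66 changed 3-fold, and 13 of 154 calls were false. The changed genes were drawn above a minimum mean CPM, and simulated counts varied independently between genes.

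In the labels' descriptions each tumour has a leading number, and the 6 lowest all belong to Alb-Cre Stat3f/f hosts, so whatever it counts cannot be told apart from genotype. Libraries of a genotype differed by more than sampling noise in every pair (chi-square 12.6 or more per gene). The values of 1 gene among the collagen partner lists are not reported here, while counts over the lists include it.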

Additional observations from a re-analysis of the deposited data

Results flagged for a closer look

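Col1a1 in WT 1 stood far from the other WT tumours, at 2387 CPM against 1684 CPM in the next highest. It was the single such sample among 74 sets of 6 values examined (the level of each tested chain, the collagen share and the partner ratios in each genotype), where chance alone would mark about 1 set in 20. Without WT 1 the log2 fold change of Col1a1 was 0.28 ± 0.14 (edgeR adjusted p = 0.292), against 0.16 ± 0.15 with it.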

How the results depend on the processing

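No chain passed in the main analysis or in 9 of the 10 alternatives that kept or subset the tumours other than one at a time; DESeq2 gave 1 lower chain, and leaving out 1 tumour gave 0 to 1. The direction of 27 chain values turned. With the fibroblast score these were Col1a1 (-0.11), Col4a6 (-0.065), Col5a1 (-0.080), Col5a2 (-0.068), Col5a3 (-0.095), Col6a1 (-0.063), Col6a2 (-0.063), Col7a1 (-0.065), Col11a1 (0.0050), Col14a1 (-0.23), Col15a1 (-0.098) and Col23a1 (-0.56), and the fibrillar median was -0.080. With the acinar score they were Col11a1 (0.091) and Col14a1 (-0.054). Without acinar-rich tumours they were Col4a6 (-0.30), Col7a1 (-0.27) and Col13a1 (-0.17), and the median of the other chains was -0.12. Col4a1 was at 0.014 with the strict filter. Col7a1 was at -0.0024 with DESeq2 size factors and without a filter, at -0.0027 without acinar genes and Rn45s, at -0.0050 with DESeq2 and at -0.014 with limma-voom. Col8a2 was at 0.030 and Col23a1 at -0.058 with limma-voom. Leaving out 1 tumour gave ranges of -0.064 to 0.039 for Col4a1, -0.094 to 0.27 for Col4a6, -0.094 to 0.18 for Col7a1, -0.15 to 0.14 for Col8a2, -0.039 to 0.41 for Col14a1 and -0.21 to 0.29 for Col23a1. The causes were not tested.

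The collagen share in Alb-Cre Stat3f/f tumours was 0.914% without acinar genes and Rn45s and 0.903% without acinar-rich tumours. Of the pathway genes, 0 were higher without a filter, with the fibroblast score and without acinar-rich tumours, and 0 to 2 when 1 tumour was left out. Lower were 6 with DESeq2, 4 without a filter, 1 without acinar-rich tumours and 1 to 3 when 1 tumour was left out. Over all genes, 287 were higher and 96 lower in the main fit, 298 and 115 without a filter, and 614 and 283 with DESeq2. They were 145 and 38 with the acinar score, 30 and 12 with the fibroblast score, and 83 and 14 without acinar-rich tumours. With 1 tumour left out, 141 to 471 were higher and 37 to 222 lower. Dcn missed the threshold without WT 1, 2, 3 or 6 and without Alb-Cre Stat3f/f 1, 2 or 3, without a filter, with the fibroblast score and without acinar-rich tumours, and Agrn without WT 2, 3, 4 or 6, without Alb-Cre Stat3f/f 1, 2 or 3, with either score and without acinar-rich tumours. Without acinar-rich tumours r was 0.66 for Col1a1 and Col1a2, 0.30 for Col6a1 and Col6a2 and -0.087 for Col8a1 and Col8a2.

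The labels state no pairing by replicate number, and none was seen in the levels. The correlation of same-numbered tumours ran from -0.51 to 0.13, and 1 of 12 correlated best with its own number. These correlations were not adjusted for the acinar share, so they cannot exclude a pairing. With a replicate block 0 chains passed, 1 pathway gene was higher and 1 lower (Agrn was lost), over all genes 145 were higher and 44 lower, and Col8a2 (0.055) and Col23a1 (-0.027) turned. The tested chains at 1 to 2 CPM had SEs of about 0.5 on the log2 scale, and the part of depth in this was not tested.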
